A study of Mus musculus with 2 samples.

Results

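Interferon-stimulated antiviral genes are the effector and sensor genes that a cell switches on when interferon signals through its receptor. They were followed here in mouse T cells after contact with the retinal pigment epithelium (RPE), a sheet of pigmented cells that underlies the retina, and in control T cells. The gene set was chosen by name, with earlier results of these data known, so comparisons with all genes below are descriptions only. It holds 37 type I interferon-stimulated genes and leaves out the interferon-inducible GTPases, the interferon regulatory factors, the STAT factors and the antigen-processing genes. Of the 37 genes, among 18193 genes on the array, 35 had at least 1 probe set, meaning several short probes read together as 1 signal, that named that gene alone, 70 probe sets in all. Isg15 had no probe set of its own, and for Ifi44 none is analysed here.

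The exposed sample was T cells exposed to RPE, and its tissue field names primary cultured RPE although its title and source name T cells. The control sample was titled as CD4 T cells. Both were labelled as male mice of C57 BL/6 background, 6 weeks old, with no transgene or deletion given in the labels. The length of exposure, any stimulation, and the number of animals behind each RNA do not appear in the labels. Each group had 1 array, so no difference below could be set against a spread between samples and no test was possible, and precision is limited by that number of arrays.

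Type I interferons bind a receptor made of Ifnar1 and Ifnar2. The kinases Jak1 and Tyk2 then activate STAT factors, which join Irf9 and bind the interferon-stimulated response element (ISRE) in the promoters of such genes. The products detect foreign nucleic acid, block its copying or translation, and attach the ubiquitin-like protein ISG15 to other proteins. T cells keep many of these transcripts at a low level and raise them when interferon is present.

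The values are linear signal intensities, and a difference is the log2 signal in RPE-exposed T cells minus that in control T cells. Where several probe sets named a gene, the one whose log2 signal averaged highest over the arrays stood for it. The gene was compared where it lay above the array's median signal, here called the floor (16 on the exposed array and 15.9 on the control array), on at least 1 array. This left 34 of the 35 genes, all above the floor on both arrays, among 10995 genes compared. Mx2 was below the floor on both arrays, with signals of 3.5 in exposed and 1.3 in control T cells. Both arrays had a trimmed mean of 100, and the Gapdh control probe sets at opposite ends of the transcript gave a ratio of 0.799 on the exposed and 0.801 on the control array.

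The antiviral genes were higher in RPE-exposed than in control T cells in nearly every case, mostly by less than 1.5-fold. Of the 34 genes, 32 had a positive difference, that of Samhd1 being near 0, beside 48.2% of all genes compared. Their median difference was 0.42, a 1.33-fold higher signal, with the middle 50% of genes between 0.18 and 0.60. The median over all 10995 genes was -0.01. At least 1.5-fold higher were 9 genes, Rsad2, Rtp4, Cmpk2, Xaf1, Mx1, Oas3, Ifit1, Oas2 and Zbp1, beside 3.13% of all genes compared. Of these, 4 fell short of 1.5-fold under another setting. With an offset of 16, Oas3 gave 0.58, Ifit1 0.48 and Oas2 0.49, and Rtp4 gave 0.50 with averaged probe sets. The Rtp4 average takes in a probe set that was below the floor on both arrays. With the floor raised to the 75th percentile Oas3 gave a bound of at least 0.02, since its control signal lay below that floor. At least 2-fold higher were 3 of them, Rsad2, Rtp4 and Cmpk2, beside 0.437% of all genes. With averaged probe sets Rsad2 gave at least 0.67, a bound, because its averaged control signal lay under the floor. In that setting Rtp4 gave 0.50 and Cmpk2 0.81, both under 2-fold. None of the 34 genes was 1.5-fold lower, beside 3.87% of all genes, or 2-fold lower, beside 0.628%, and the remaining 25 genes lay within 1.5-fold. By rank, 21 of the 34 genes were in the highest 10% of differences among all genes compared, and 11 were in the highest 5%. The plot of signals by gene shows the shift for each gene.

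**Figure D1:**
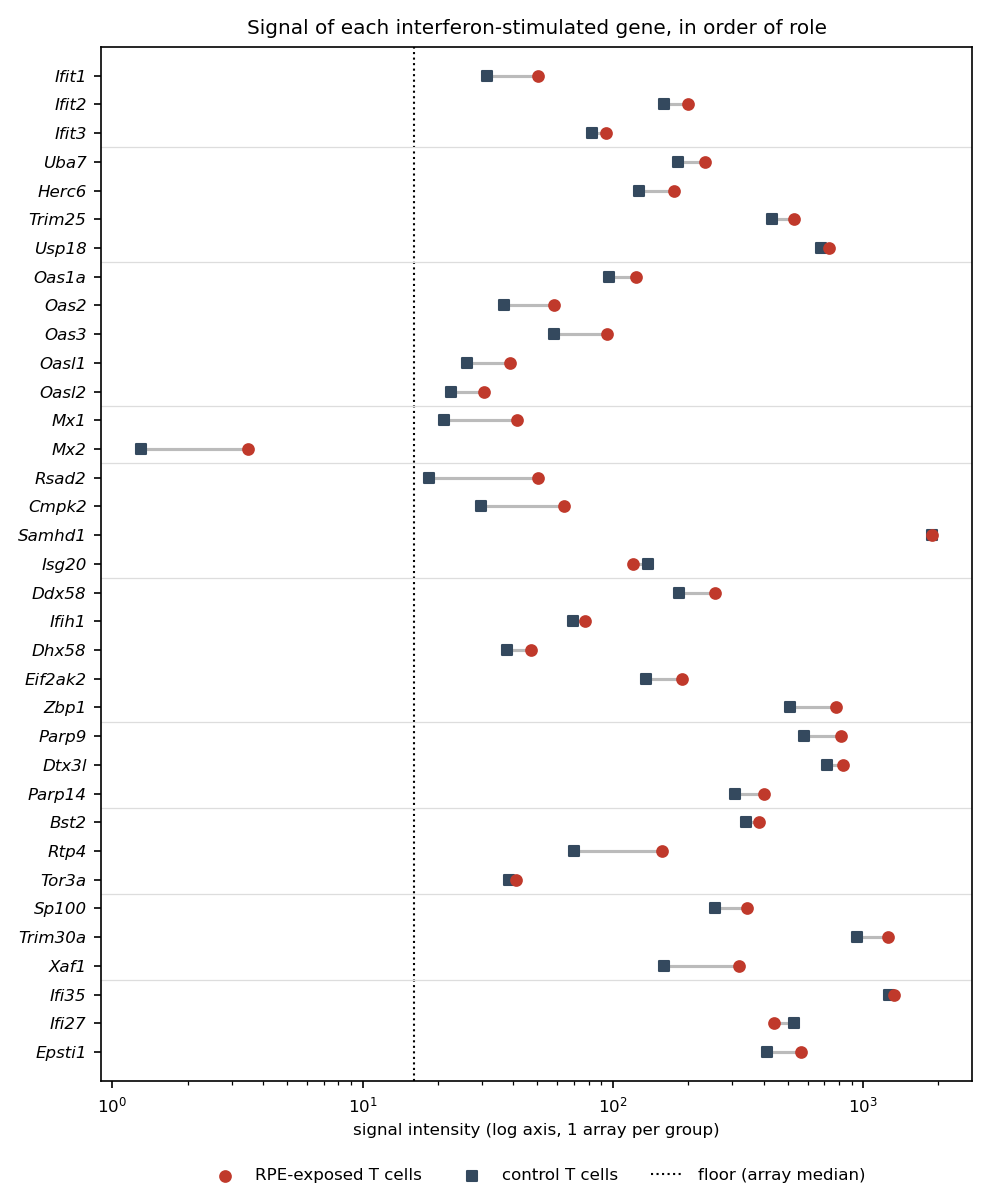
Signal intensity (log axis) of the 35 genes with a probe set, in RPE-exposed T cells (circles) and control T cells (squares), 1 array each, grouped by role as in the text; the dotted line is the floor. The exposed signal lies to the right of the control signal for all genes but Isg20 and Ifi27, the points of Samhd1 overlap, and Mx2 is below the floor in both samples.

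The largest difference among the antiviral genes was that of Rsad2. Rsad2 encodes viperin, an enzyme that converts a nucleotide into a terminator of viral RNA chains. Its signal was 50.3 in exposed and 18.5 in control T cells, 2.72-fold higher, a difference of 1.44 that 7 of the 10995 genes compared exceeded. The control signal lay just above the floor. Of the other 2 Rsad2 probe sets, 1 gave 20 in exposed and 10.6 in control T cells and the other 16.2 in exposed and 12.9 in control T cells, so both were above the floor in exposed T cells only. They put the gene at least 1.26-fold and at least 1.02-fold higher.

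Cmpk2, a mitochondrial nucleotide kinase, is the next protein-coding gene to Rsad2 in mouse assembly GRCm38.p6. It gave 64 in exposed and 29.7 in control T cells, 2.15-fold higher. A second, dimmer probe set gave 23.5 in exposed and 16.4 in control T cells, a 1.43-fold difference. Both neighbours were thus higher in exposed T cells, on dim probe sets. The 2 other enzymes that act on nucleotides or nucleic acids behaved otherwise. Samhd1, which breaks down the building blocks of DNA, gave 1892.2 in exposed and 1887.5 in control T cells, a difference of 0.0036. Its 5 probe sets ran from -0.64 to 0.51 and disagreed in sign, so the array gives no single direction for it. Isg20, an exonuclease that degrades RNA, was lower, with 120.5 in exposed and 137.9 in control T cells (-0.19).

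The 5 oligoadenylate synthetase genes were all higher. These proteins sense double-stranded RNA, and the active synthetases make the messenger that switches on RNase L. Oas3 gave 94.6 in exposed and 58.2 in control T cells, 1.63-fold higher. Oas2, its chromosomal neighbour, gave 58.1 in exposed and 36.7 in control T cells, 1.58-fold higher. Oas1a was 1.29-fold higher, at 123.9 in exposed and 96.4 in control T cells. The OAS-like pair was dimmer. Oasl1, which in mouse lacks synthetase activity, gave 38.9 in exposed and 26.1 in control T cells and at 1.49-fold just missed the 1.5-fold mark. Oasl2 gave 30.5 in exposed and 22.6 in control T cells, 1.35-fold higher. Each of the 5 genes rested on 1 probe set.

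The 3 IFIT genes, whose products hold back the translation of foreign RNA, were higher to unequal degrees. Ifit1 gave 50.2 in exposed and 31.5 in control T cells, 1.59-fold higher. Ifit2 gave 199.2 in exposed and 160.8 in control T cells, 1.24-fold higher. Ifit3 gave 93.5 in exposed and 82.8 in control T cells, a 1.13-fold difference. Each had a single probe set. Mx1, a dynamin-like protein that blocks influenza virus where the allele is intact, gave 41.3 in exposed and 21.2 in control T cells. It was 1.95-fold higher, just short of the 2-fold mark. C57 BL/6 mice carry an Mx1 allele that makes no functional protein.

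Among the genes of ISG15 conjugation, the enzymes were moderately higher. Uba7, which activates ISG15, gave 233.1 in exposed and 181.8 in control T cells, 1.28-fold higher, and its 3 probe sets gave differences from 0.36 to 0.63. Herc6, which serves as the ISG15 ligase in mouse, gave 175.5 in exposed and 127.3 in control T cells, 1.38-fold higher. All 4 Herc6 probe sets were higher, with differences from 0.29 to 0.46. Trim25, a ubiquitin ligase that acts with the sensor RIG-I, gave 527.4 in exposed and 433.6 in control T cells, 1.22-fold higher, with 3 probe sets from 0.20 to 0.62. The deconjugating enzyme differed least of the 4 measured. Usp18, which removes ISG15 and restrains the interferon receptor, gave 731.9 in exposed and 681.1 in control T cells, a 1.07-fold difference.

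All 5 sensor genes had positive differences. Zbp1, a sensor of Z-form nucleic acid that can trigger cell death, was the only sensor at least 1.5-fold higher, with 781.2 in exposed and 510.2 in control T cells (1.53-fold). Its second probe set gave 424.9 in exposed and 281.6 in control T cells, 1.51-fold higher, so the probe sets differed by little (differences of 0.61 and 0.59). Eif2ak2 encodes PKR, a kinase that stops translation on meeting double-stranded RNA. It gave 189.7 in exposed and 135.2 in control T cells, 1.40-fold higher, and its 3 probe sets lay between 0.42 and 0.56. Ddx58 encodes RIG-I, a sensor of viral RNA ends. It gave 256.6 in exposed and 183.5 in control T cells, 1.40-fold higher, with 3 probe sets from 0.48 to 0.83. The remaining pair of sensors differed less on the probe sets that stand for them. Ifih1, which encodes the long-RNA sensor MDA5, gave 77.3 in exposed and 69.2 in control T cells, a 1.12-fold difference. Dhx58, which encodes the regulator LGP2, gave 47 in exposed and 37.8 in control T cells, 1.24-fold higher. A second Dhx58 probe set gave 42.3 in exposed and 16 in control T cells, 2.64-fold higher, with the control signal just above the floor. The third was below the floor on both arrays.

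Parp9 and Dtx3l, which form an ADP-ribosylating ubiquitin ligase, and Parp14, an ADP-ribosyltransferase, lie side by side in GRCm38.p6. Parp9 gave 816.5 in exposed and 580.8 in control T cells, 1.41-fold higher. Dtx3l gave 832.2 in exposed and 720.1 in control T cells, 1.16-fold higher, and Parp14 gave 401.2 in exposed and 307.5 in control T cells, 1.30-fold higher. The second probe sets of Dtx3l and Parp14 gave 0.27 and 0.43, close to the 0.21 and 0.38 of the first.

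Of the 3 genes of membranes and protein trafficking, Rtp4 stood out. Rtp4, a chaperone that carries receptors to the cell surface, gave 157.4 in exposed and 70.2 in control T cells, 2.24-fold higher. Its other probe set was below the floor on both arrays, at 4 in exposed and 4.5 in control T cells. Bst2 encodes tetherin, which holds budding virus at the cell surface. It gave 384.2 in exposed and 341.3 in control T cells, a 1.13-fold difference. Tor3a, a torsin-family ATPase of the endoplasmic reticulum, gave 41.1 in exposed and 38.3 in control T cells. Its 2 other probe sets lay above the floor on 1 array only and pointed opposite ways, at 13.5 and 17.2 in exposed and 26.6 and 11.9 in control T cells.

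Xaf1, an antagonist of the apoptosis inhibitor XIAP, gave 317.9 in exposed and 159.8 in control T cells. It was 1.99-fold higher, just under the 2-fold mark, on a probe set well above the floor, while its second probe set was below the floor on both arrays. Trim30a, which restrains NF-kappaB signalling in mouse, gave 1253 in exposed and 949.4 in control T cells, 1.32-fold higher. Its second probe set gave 704.4 in exposed and 439.1 in control T cells, 1.60-fold higher. Sp100, a protein of PML nuclear bodies, gave 344.9 in exposed and 254.9 in control T cells, 1.35-fold higher, and its second probe set gave a difference of 0.23.

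The last 3 measured genes were of mixed direction. Epsti1 gave 563.8 in exposed and 413.2 in control T cells, 1.36-fold higher. Its 2 other probe sets that passed the floor on both arrays differed less, with 364.2 in exposed and 324.7 in control T cells (0.17) for the brighter and a difference of 0.07 for the dimmer. A further Epsti1 probe set was above the floor in exposed T cells only, at 41 against 15.5 in control T cells, at least 2.58-fold higher. Ifi35, a partner of Nmi, gave 1333.2 in exposed and 1267.2 in control T cells, a 1.05-fold difference. Its 3 probe sets ran from 0.07 to 0.44, and their average was 0.20. Ifi27 was the lowest of the 34 genes, with 439.6 in exposed and 529.1 in control T cells (-0.27), and its second probe set gave -0.08.

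Agreement between probe sets of a gene was the check of error available within this pair of arrays. Probe sets share the RNA and so do not replicate it. Both arrays gave a signal above the floor for 61 of the 70 probe sets, a single array did for 5, and neither did for 4. Of the 61, 55 had a positive difference, beside 48.4% of all 1-gene probe sets that passed the same floor. At least 1.5-fold higher were 15 of the 61, beside 2.9% of all, and 1 was 1.5-fold lower, a Samhd1 probe set, beside 3.62%. At least 2-fold higher were 4 of the 61, beside 0.412%, and none was 2-fold lower, beside 0.576%. In 16 genes more than 1 probe set passed the floor on both arrays. All their probe sets were positive in 14 of these genes and negative in 1, Ifi27, and they disagreed in sign in 1, Samhd1. The pooled SD of the differences within a gene was 0.27 for the 16 genes and 0.24 for the 4767 genes of the array that could be assessed. The plot of probe sets by gene shows widely spread probe sets for Dhx58 (SD 0.77), Samhd1 (0.42) and Cmpk2 (0.42), and closely placed ones for Zbp1, Parp14 and Eif2ak2. For Rsad2 a single probe set passed the floor on both arrays, so no spread can be given.

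**Figure D2:**
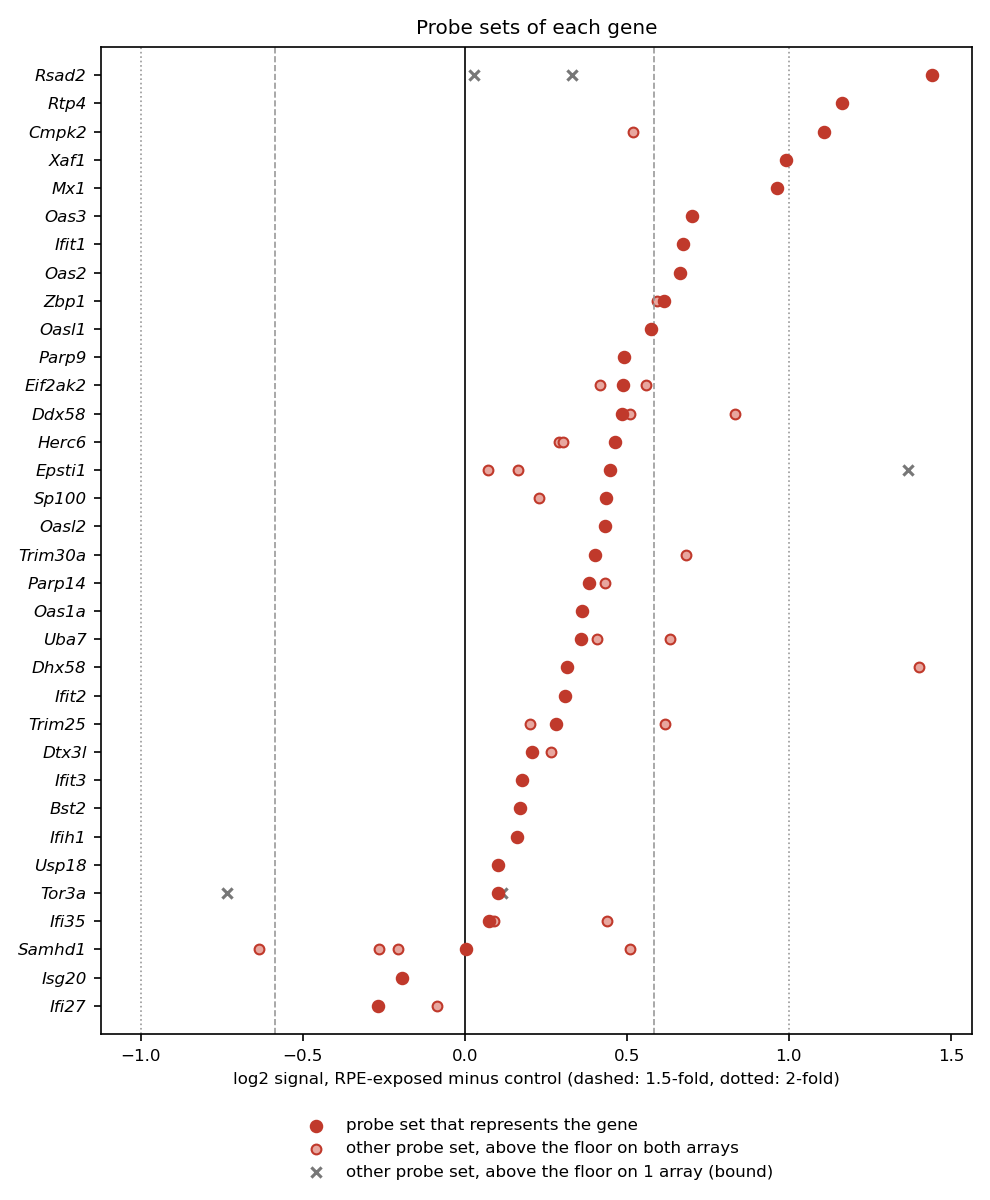
Log2 difference, RPE-exposed minus control, of each probe set above the floor on at least 1 array (points), for the 34 genes in order of difference; dashed lines mark 1.5-fold and dotted lines 2-fold. Filled points represent the gene, pale points are its other probe sets, and crosses are bounds from probe sets above the floor on 1 array. Nearly all points lie right of 0, and Samhd1 spans both sides.

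Dim probe sets vary more on an array, so the differences were also read by signal level, which describes the probe set and not the amount of transcript. With a mean signal under 50 there were 9 antiviral genes, all positive, beside 47.6% of all genes of that level. Their median difference was 0.66, and 5 were at least 1.5-fold higher, beside 7.47%. From 50 to 200 there were 9, of which 8 were positive, beside 42.9%, with a median of 0.36 and 2 at least 1.5-fold higher, beside 2.13%. At 200 or more there were 16, of which 15 were positive, beside 53%, with a median of 0.37 and 2 at least 1.5-fold higher, Xaf1 and Zbp1, beside 0.879%. The shift was thus present at each level. Of the 9 genes at least 1.5-fold higher, 5 came from dim probe sets, among which such differences were also more frequent over all genes. In the plot of difference against level the antiviral genes lie mostly in the upper part of the cloud of genes.

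**Figure D3:**
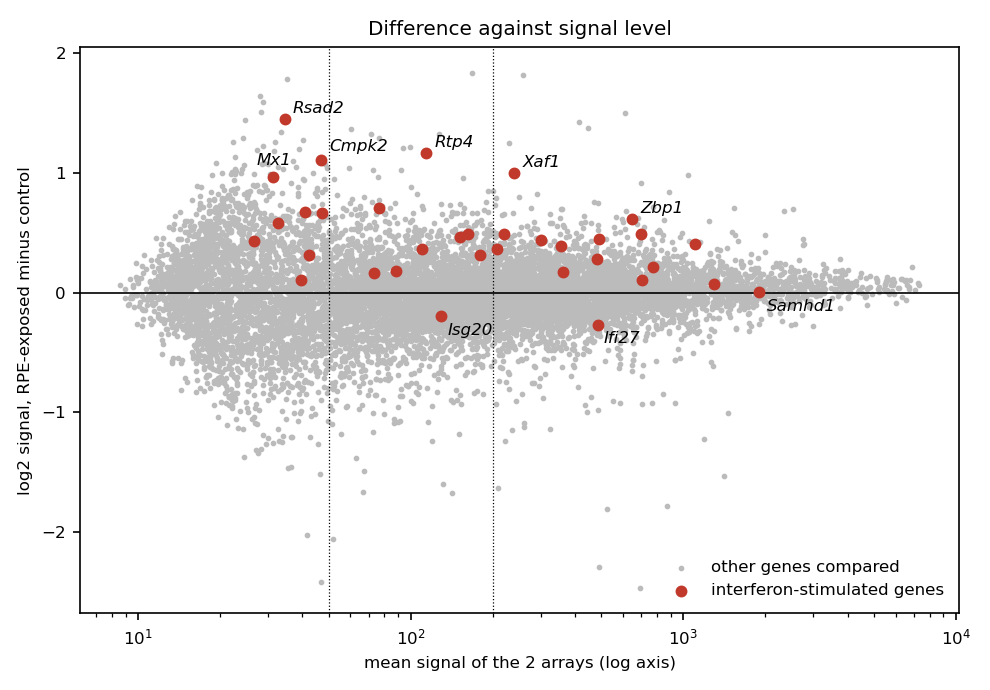
Log2 difference, RPE-exposed minus control, against the mean signal of the 2 arrays (log axis) for the 34 antiviral genes (large points) and the other genes compared (small points); dotted lines mark mean signals of 50 and 200. The antiviral genes lie above 0 at every level except Isg20 and Ifi27, with Samhd1 on the line, and the larger differences are on the dimmer side.

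Promoters of the antiviral genes are shown because the ISRE is an element through which interferon acts on such genes. Promoter windows of 300 bases, 250 before and 50 after the start, were available from RefSeq for 26 of the 37 genes (assembly GRCm38.p6). They were searched on both strands for the ISRE core, GAAA followed by any 2 bases and again GAAA, which on the other strand reads as TTTC, any 2 bases and TTTC. The core was present in 11 of the 26 genes (42.3%), beside 3.99% of the 27025 genes in the table. The 11 were Bst2, Ddx58, Eif2ak2, Ifih1, Ifit1, Ifit3, Isg15, Oas1a, Oas3, Rsad2 and Trim30a. The STAT palindrome TTCNNNGAA, which can overlap the core, was present in 7 of the 26 genes (26.9%), beside 9.55% of all. Genes chosen as interferon-stimulated are apt to hold these elements, so neither share describes the arrays. Isg15 and Ifi44, among the 26, were not compared. The 250 bases before the start are printed for the gene with the largest difference, its neighbour without a core, 2 genes with a pair of cores, and the first of 3 windows of Isg20, which was lower and held no core in any of them. Capitals mark the core.
Rsad2, chr12:26456453-26456702 (- strand): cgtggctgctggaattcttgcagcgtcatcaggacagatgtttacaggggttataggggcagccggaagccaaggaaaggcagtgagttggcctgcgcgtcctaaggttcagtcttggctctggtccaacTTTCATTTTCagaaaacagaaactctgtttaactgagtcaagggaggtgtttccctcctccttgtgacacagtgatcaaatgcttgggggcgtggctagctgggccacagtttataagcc
Cmpk2, chr12:26468965-26469214 (+ strand): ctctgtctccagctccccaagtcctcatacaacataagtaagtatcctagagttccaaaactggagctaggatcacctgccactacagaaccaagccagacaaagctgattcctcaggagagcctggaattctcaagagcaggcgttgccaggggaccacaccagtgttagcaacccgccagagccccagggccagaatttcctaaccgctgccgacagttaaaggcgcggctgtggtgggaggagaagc
Ifit1, chr19:34640639-34640888 (+ strand): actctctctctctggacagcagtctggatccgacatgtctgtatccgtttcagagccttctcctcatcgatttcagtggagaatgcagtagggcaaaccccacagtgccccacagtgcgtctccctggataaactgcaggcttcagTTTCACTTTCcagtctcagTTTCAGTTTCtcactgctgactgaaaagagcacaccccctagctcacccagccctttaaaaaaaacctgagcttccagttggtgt
Oas1a, chr5:120907526-120907775 (- strand): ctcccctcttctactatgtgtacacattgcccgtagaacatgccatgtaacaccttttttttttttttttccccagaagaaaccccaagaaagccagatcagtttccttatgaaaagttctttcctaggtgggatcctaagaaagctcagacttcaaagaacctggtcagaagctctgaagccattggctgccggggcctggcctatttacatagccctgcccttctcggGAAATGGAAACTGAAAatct
Isg20, chr7:78913174-78913423 (+ strand): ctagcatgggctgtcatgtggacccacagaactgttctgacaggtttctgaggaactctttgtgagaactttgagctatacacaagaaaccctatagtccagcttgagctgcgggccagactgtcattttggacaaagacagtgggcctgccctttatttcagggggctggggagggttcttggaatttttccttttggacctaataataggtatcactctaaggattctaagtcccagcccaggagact

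Counted from the start, the core of Rsad2 began at -120. Ifit1 had cores at -104 and -85, and Ifit3, at 1.13-fold the least different gene of its family, had cores at -156 and -122. The first and second cores of Ifit3 had the same 10 letters as the first and second cores of Ifit1. Those of Oas1a, at -20 and -14, overlapped. The cores of 6 measured genes are set side by side to show how the 2 free bases differ.
Rsad2: TTTCATTTTC
Ifit1, first: TTTCACTTTC
Ifit1, second: TTTCAGTTTC
Ifit3, first: TTTCACTTTC
Ifit3, second: TTTCAGTTTC
Oas3: GAAAACGAAA
Eif2ak2: GAAAACGAAA
Ddx58: TTTCGATTTC

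Among the measured genes with a window, presence of the core did not separate the larger from the smaller differences. The 11 genes without a window could not be sorted in this way. They include Rtp4, Mx1, Oas2 and Zbp1, each at least 1.5-fold higher. The 10 measured genes with a core had a median difference of 0.44, from 0.16 to 1.44, and all 10 were positive. The 14 measured genes with a window and no core had a median of 0.40, from -0.19 to 1.11, and 13 were positive. No match says only that these letters are not in the window. A match is a description and not a binding site.

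The lists of genes that send and carry the interferon signal had medians near or below 0. Within them Ifnar1, Stat2, Irf9 and Irf7 were each higher in exposed T cells. Of the ligands, Ifng, the type II interferon that T cells secrete, was lower, with 971.4 in exposed and 1950 in control T cells (-1.01). The type I interferon genes Ifnb1, Ifna1, Ifna2 and Ifna4 were below the floor on both arrays. Of the type I receptor chains, Ifnar1 gave 326.9 in exposed and 247.2 in control T cells, 1.32-fold higher, while Ifnar2 gave 231.3 in exposed and 228.4 in control T cells, 1.01-fold. The type II receptor chains went opposite ways. Ifngr1 gave 810.1 in exposed and 544.3 in control T cells, 1.49-fold higher, and Ifngr2 gave 73 in exposed and 109.5 in control T cells (-0.58), exactly at the 1.5-fold mark. The 5 receptor genes had a median difference of 0.02, beside -0.01 over all genes compared.

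The signal transducers had a median difference of 0.05 over 6 genes, 4 of them positive and none 1.5-fold different. Stat2 gave 191.2 in exposed and 165.9 in control T cells (0.20). Irf9, its partner, gave 353 in exposed and 303.5 in control T cells (0.22). The kinases Jak1 (0.05) and Tyk2 (0.05) differed little, and Jak2, which serves the type II receptor, gave 529.3 in exposed and 780.4 in control T cells (-0.56). Among 7 interferon regulatory factors the median was -0.12 and 2 were positive, beside 48.2% of all genes compared. Irf8 was the 1 at least 1.5-fold lower (-0.62), beside 3.87% of all genes compared. Irf7, itself induced by interferon, gave 119.8 in exposed and 104.8 in control T cells (0.19), while Irf1, a main target of type II interferon, gave 847.7 in exposed and 895.5 in control T cells (-0.08). The feedback genes had a median of -0.32 over 5, with 2 at least 1.5-fold lower, beside the same 3.87%. Socs1, which inhibits the receptor kinases, gave 224.6 in exposed and 368.8 in control T cells (-0.72), and Socs3 gave 600.1 in exposed and 1077.4 in control T cells (-0.84). The adaptors of the nucleic acid sensors had a median of -0.01 over 5 genes. Ticam1, the adaptor of a toll-like receptor for RNA, was the 1 at least 1.5-fold lower, again beside 3.87% of all genes. It gave 44.1 in exposed and 70.4 in control T cells (-0.67).

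Among other interferon-induced genes, the measured GTPases were all higher, beside 48.2% of all genes compared, and the antigen-processing genes had a median near 0. Of 12 listed GTPases, 8 had a probe set of their own. The 8 measured GTPases had a median difference of 0.48, from 0.25 to 0.71. Of these, 1 was at least 1.5-fold higher, beside 3.13% of all genes compared. This was Iigp1, which acts against intracellular parasites, at 960 in exposed and 585 in control T cells. The antigen-processing genes had a median of 0.04 over 9 genes, from -0.07 to 0.36, none of them 1.5-fold different. Both sets respond to interferon of either type. The antiviral genes, at a median of 0.42, thus lay nearer to the GTPases, and the difference between the sets was not tested. The lists for these other genes are compared in the plot of pathway lists.

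**Figure D4:**
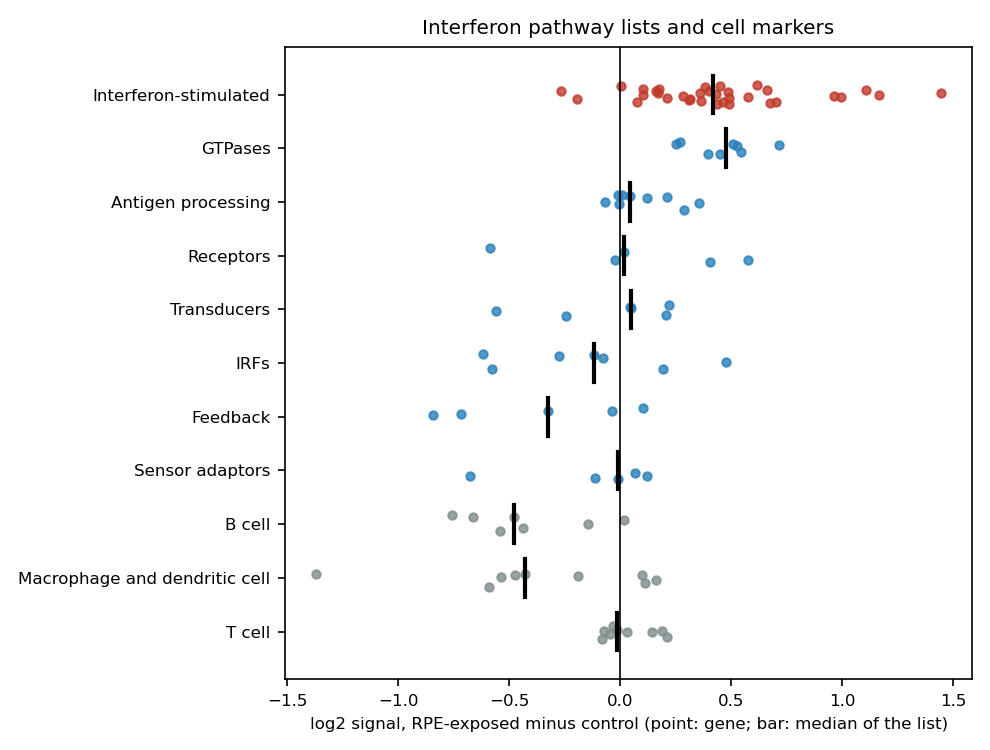
Log2 difference, RPE-exposed minus control, of each gene (points) and the median of each list (bars), for the antiviral genes, other interferon pathway lists and cell markers. The antiviral genes (median 0.42) and GTPases (0.48) lie to the right of 0, B-cell markers (-0.48) and macrophage and dendritic-cell markers (-0.43) to the left. Feedback genes are at -0.32, and the other lists drawn have medians nearer to 0.

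Other cell types were checked because a bulk array cannot tell fewer cells of a type from less RNA per cell. Markers of T cells differed little, with summed signals of 14131.4 in exposed and 13553.3 in control T cells over 9 markers and a median difference of -0.01. Both CD8 T-cell markers were measured in both samples and were higher in exposed T cells, with a median difference of 0.38 and a sum of 1678.5 in exposed and 1275.2 in control T cells. Cd8a gave 694.6 in exposed and 568.8 in control T cells, and Cd8b1 gave 983.9 in exposed and 706.4 in control T cells, although the control was titled as CD4 cells. B-cell markers were lower, with a median of -0.48 and a sum of 1239.9 in exposed and 1791.9 in control T cells. Of these, 6 of 7 were negative, beside 5670 of the 10995 genes compared. Macrophage and dendritic-cell markers had a negative median too, at -0.43. Of the 9 measured ones 6 were negative, which is not far from that share of all genes. Their sum over 10 markers was 263.4 in exposed and 347.6 in control T cells. Itgam was below the floor on both arrays. Many of the others lay near it, such as Cd14 at 16.1 in exposed and 21.7 in control T cells, and some gave bounds only. NK-cell markers had a median of 0.11, with 2 of 3 positive, beside 48.2% of all genes compared. Of 6 markers of plasmacytoid dendritic cells, which make much type I interferon, 4 were measured. Their median difference was -0.21, with 3 negative, again beside 5670 of the 10995 genes compared. The 4 include Bst2, itself an antiviral gene here, and Irf8, at 1015.8 in exposed and 1557.2 in control T cells. Siglech, a defining marker, was below the floor on both arrays, at 2.1 in exposed and 9.3 in control T cells, as was Ccr9. Of 12 RPE markers, 11 were below the floor on both arrays, Rpe65 among them at 2.3 in exposed and 5.3 in control T cells. The part of these cell types in the differences of the antiviral genes was not tested. Leukocytes in general express many of those genes.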

How the data were processed

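RNA of 1 RPE-exposed and 1 control T-cell sample was measured on 1-colour Affymetrix arrays after labelling with biotin, per the labels' protocols. The authors deposited linear signal intensities, 1 per probe set and array, without log transformation. The software that summarized and scaled the signals is not given in the sources used here. Of 45101 probe sets, 64 were manufacturer's controls and were left out. Probe sets named 1 gene (34945), several (932) or none (9160) in the platform annotation supplied with the table, and 1-gene probe sets were used. All 37 gene symbols were found in the RefSeq gene table.

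From the deposited intensities, log2 differences were computed (Python 3.11.15, pandas 2.3.3, numpy 2.4.6; figures in matplotlib 3.10.9). Signals under the median of the array, manufacturer's controls left out, were set to it, and a gene above it on 1 array only gives a bound, written "at least". Calls follow fixed sizes, 1.5-fold and 2-fold. The steps were run on simulated data with planted differences above 2-fold in genes clear of the floor. That run does not cover smaller differences or dim probe sets. Medians of lists were set beside all genes compared. All measured members are named. Of other genes, 15 ligands, receptors and transducers fixed by name could be named, and up to 3 of each further list and the defining cell markers. The members and lists were chosen with earlier results of these data known. Alternatives were the floor, an offset, scaling, and the probe sets used. With 1 array a group there was no test.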

Additional observations from a re-analysis of the deposited data

How the results depend on the processing

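Over 8 alternatives (floor at the 25th or 75th percentile, no floor, an offset of 16, median centring, quantile normalization, averaged probe sets, and no probe sets ending in x_at, s_at or a_at) the median difference of the antiviral genes ran from 0.36 to 0.43. The share of positive genes was lowest with averaged probe sets, at 30 of 34. It was highest, at 26 of 27, without probe sets ending in x_at, s_at or a_at. The number at least 1.5-fold higher was 3 when the floor lay at the 75th percentile, and otherwise ran from 6 to 10. That floor left 24 of the genes, some of them as bounds, such as Oas3. The number at least 2-fold higher was 0 under that floor, 0 with averaged probe sets and 1, Rtp4, with the offset. The 2-fold calls held in 5 of 7 alternatives for Rsad2, 6 of 8 for Rtp4 and 4 of 6 for Cmpk2, counting those in which each gene was measured. Among the rest, Rsad2 with averaged probe sets and Rtp4 under the 75th-percentile floor gave bounds, since the control signal lay under the floor. Without probe sets ending in x_at, s_at or a_at, 1 gene (Tor3a, a bound from a probe set under the floor in exposed T cells) was at least 1.5-fold lower. The share of all genes at least 1.5-fold higher was 0.95% under the 75th-percentile floor, 10.5% under the 25th-percentile floor and 14.6% without one, since dim genes then enter. Of the 34 genes, 32 kept the sign of their difference in each alternative that measured them, and Samhd1 and Tor3a did not, with Samhd1 from -0.12 to 0.02 and Tor3a from -0.73 to 0.13. No paired analysis was possible because each group has 1 array and no result comes from a test, and no array could be left out for the same reason.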

Other observations

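A probe set annotated to both Isg15 and Gm9706 gave 137.8 in exposed and 92.1 in control T cells (log2 difference 0.58), and its signal cannot be assigned to either gene. A probe set annotated to both Trim30d and Trim30a gave 445.9 in exposed and 348.4 in control T cells (0.36). Neither entered a comparison. The promoter window of Isg15 held 3 overlapping ISRE cores, which began at -78, -72 and -66 from the start.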
